A study of Mus musculus with 3 samples.

Results

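The goblet cell mucus proteins described here are 10 genes of the 35824 genes in the count table, namely Muc2, Fcgbp, Clca1, Zg16, Agr2, Tff3, Spink4, Klk1, Sytl2 and Tpsg1. They were chosen by name, as genes for secreted mucus or goblet granule proteins, and all 10 were found in the table and passed the filter on low counts. Expression was measured by RNA-seq in intestinal epithelial cells (IEC) sorted as EpCAM+ CD45- from mouse small intestinal organoids (SIO). The SIO, spheres of crypt epithelium grown in a gel, came from female CD45.1 C57BL/6 mice, aged 6 to 8 weeks by the labels, and were kept for 4 days with type-3 innate lymphoid cells (ILC3). The ILC3 were sorted from the small intestinal lamina propria of RORγt-GFP reporter mice, and the medium held IL-2, IL-7 and IL-15. The samples are 3 libraries of the IEC + ILC3 condition, named A, B and C, which the labels number as biological replicates. The labels keep A and B in the study's final analysis and leave C out, with no reason given. Organoids without ILC3 were not analysed here, so no value below is an effect of ILC3.

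Goblet cells are secretory cells of the intestinal lining that fill large granules with mucus and release them into the lumen. In the endoplasmic reticulum the mucin chains are folded and joined by disulfide bonds, in the Golgi they are coated with sugars, and after release they swell into a gel. Proteins packed with the mucin bind, cut or protect this gel, which keeps bacteria away from the epithelium.

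Total counts were 17946361, 23142849 and 28913885 in A, B and C, and levels are given as CPM, the count per 1000000 counts of the library after TMM scaling. All 9 epithelial markers listed, Epcam and Krt8 among them, were tested. edgeR called none of them different in C, and DESeq2 called 1 higher. The leukocyte marker Ptprc, which encodes CD45, had 1, 0 and 0 counts. The 12 Paneth cell markers summed to 16457, 23165 and 23386 CPM. Libraries A and B lay nearer to each other (median absolute log2 difference 0.33) than C lay to A (0.50) or to B (0.57). These medians are over the 11232 genes with at least 10 counts in every library.

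A RefSeq promoter entry (GRCm38.p6) was found for 5 of the 10 genes, and not for Sytl2, Clca1 or Zg16, which had the largest log2 differences in C. The 250 bases before the RefSeq start are printed below for Muc2 and Fcgbp, which were lower in C, and for Agr2 and Klk1, which were not called, so that both kinds can be compared. The RefSeq start of Agr2 lies downstream of the GENCODE start given below, so the last bases of its window fall inside the GENCODE gene. All lie on the plus strand and read 5′ to 3′. Capitals mark CAGCTG, an E-box of the kind bound by basic helix-loop-helix factors such as Atoh1, and TATAAA, a core bound by TBP.
Muc2, chr7:141690090-141690339: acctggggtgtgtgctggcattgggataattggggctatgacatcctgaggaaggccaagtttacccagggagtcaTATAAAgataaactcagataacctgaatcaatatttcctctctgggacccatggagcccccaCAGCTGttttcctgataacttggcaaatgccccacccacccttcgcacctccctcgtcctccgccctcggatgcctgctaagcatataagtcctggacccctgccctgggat
Fcgbp, chr7:28070986-28071235: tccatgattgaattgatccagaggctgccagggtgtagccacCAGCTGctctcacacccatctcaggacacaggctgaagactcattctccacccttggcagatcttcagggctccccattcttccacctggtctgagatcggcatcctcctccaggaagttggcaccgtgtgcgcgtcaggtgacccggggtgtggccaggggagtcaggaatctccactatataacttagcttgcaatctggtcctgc
Agr2, chr12:35992675-35992924: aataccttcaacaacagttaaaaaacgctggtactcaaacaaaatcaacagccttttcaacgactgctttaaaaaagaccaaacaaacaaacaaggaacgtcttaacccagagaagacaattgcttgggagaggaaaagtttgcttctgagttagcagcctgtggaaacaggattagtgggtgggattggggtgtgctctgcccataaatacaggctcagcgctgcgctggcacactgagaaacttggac
Klk1, chr7:44225110-44225359: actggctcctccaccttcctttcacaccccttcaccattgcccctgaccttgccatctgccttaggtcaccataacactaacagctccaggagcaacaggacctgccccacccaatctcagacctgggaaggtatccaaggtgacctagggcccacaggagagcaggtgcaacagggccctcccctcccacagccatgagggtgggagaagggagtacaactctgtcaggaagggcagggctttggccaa

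CAGCTG was found once before Muc2, starting at base -112, and once before Fcgbp, at base -208. It was in neither the Agr2 nor the Klk1 window, nor in either of the 2 windows of Tpsg1, the third gene with an entry that was lower in C. Among 32851 windows of the same length, 13% held CAGCTG on either strand. The exact letters TATAAA were found only before Muc2, at base -174, and 12.4% of all windows held them. Variants were not searched, so TATAAG before Muc2 and TATATAA before Fcgbp, both nearer the start, are not marked. CACCC, a core bound by Krüppel-like factors, was in all 6 windows of these genes and in 52% of all windows. TGTTTAC, a forkhead core bound by Foxa factors, was in none of the 6, against 3.17% of all windows. No match of 1 motif overlapped a match of another, and all were searched on both strands. A match describes letters in the window and is not a measured binding site.

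The first question was how strongly each gene was expressed in these IEC. Levels of different genes were compared as CPM per kilobase of the median annotated transcript. The highest levels were those of Tff3 at 1624 ± 572, Spink4 at 1576 ± 534 and Agr2 at 551 ± 130 (mean ± SD, n = 3 libraries). Muc2 followed at 228 ± 143 and Clca1 at 154 ± 104. Fcgbp was at 142 ± 74.1, Zg16 at 141 ± 98.8 and Klk1 at 82.4 ± 28.6. Tpsg1 at 14.5 ± 8.92 and Sytl2 at 2.06 ± 1.87 were the lowest. Spink4 lay above Agr2, Agr2 above Muc2, Klk1 above Tpsg1 and Tpsg1 above Sytl2 with no overlap over the 3 libraries. The ranges of the other neighbours overlapped over the 3 libraries, as for Tff3 and Spink4 and for the run from Muc2 to Klk1. Within each library, however, Muc2 lay above Clca1 in all 3.

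This order depends on the gene model used. The longest of the 8 Muc2 transcripts in the annotation has 2926 bases and the median has 767, although the mucin itself is a very large protein. With the longest transcript Muc2 fell from place 4 to place 7, at 59.9 ± 37.5 CPM per kilobase, and Zg16 took place 4 at 128 ± 90.1. Tff3, Spink4 and Agr2 kept the first 3 places with either length.

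The 10 genes together summed to 2697, 3431 and 2218 CPM in A, B and C. The make-up of this sum differed between libraries. Fcgbp held 25.3% of it in A and 23.9% in B, but 10.9% in C. Muc2 held 9.50%, 6.37% and 2.27%. Spink4 went the other way, with 11.8% in A, 14.5% in B and 29.3% in C. The plot of CPM by library shows the same genes on 1 log axis.

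**Figure D1:**
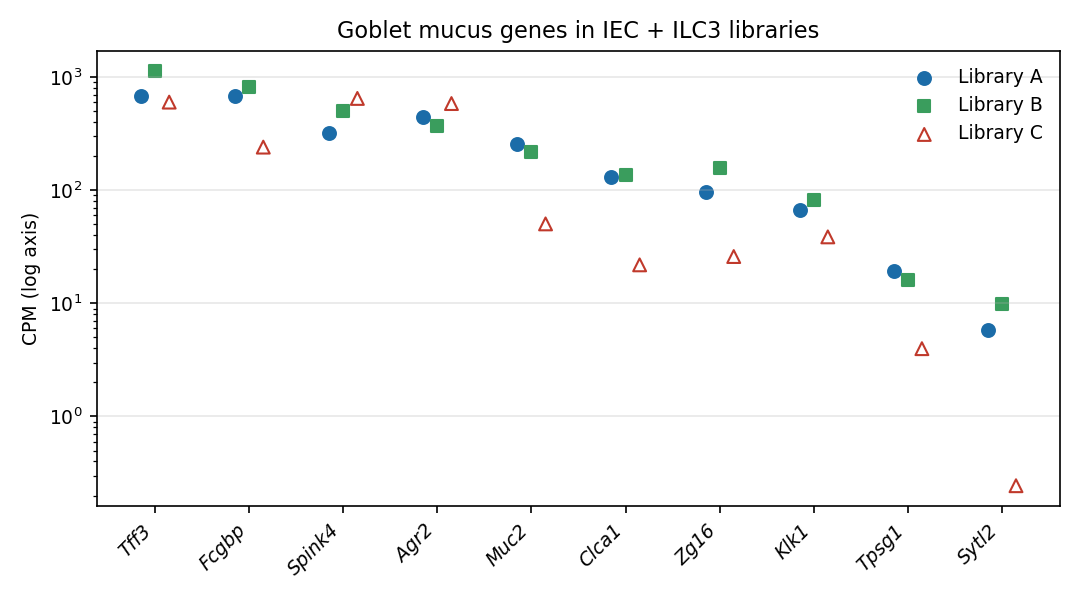
CPM of each gene (log axis) in libraries A (circles), B (squares) and C (open triangles), ordered by mean CPM. C lies below both other libraries for 8 genes, from Tff3 (602 CPM) to Sytl2 (0.244 CPM), and above both for Agr2 and Spink4.

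The second question was how the library that the labels leave out differed from the pair that they keep. Muc2, Fcgbp, Clca1, Zg16, Tpsg1 and Sytl2 were lower in C, while Agr2, Tff3, Spink4 and Klk1 were not called. The comparison used edgeR's quasi-likelihood test over all 13604 genes that passed the filter, with an adjusted p under 0.1 as the call. It called 6 of the 10 genes lower, or 60%, against 5.2% of all genes tested. It called none of the 10 higher, against 1.36% of all genes. At an unadjusted p under 0.05 edgeR gave 7 lower and 0 higher, against 14% and 8.25% of all genes. DESeq2's Wald test gave 6 lower and 0 higher, against 9.17% and 2.96% of the 13340 genes with an adjusted p. The median log2 fold change of the 10 genes was -1.90, and that of all genes tested was -0.10. C lay below both A and B for 8 of the 10 genes (41.2% of all genes) and above both for 2 (37.3% of all genes). Sytl2 passed the filter through A and B, so a lower call was the only one open to it. The 10 genes were chosen with earlier results of these data known. The test compares libraries and not conditions. It has 1 residual degree of freedom, which comes from A against B, and draws part of its estimate of spread from other genes. It takes C to vary like A and B, and says nothing of spread beyond these libraries. In sorted bulk IEC, fewer goblet cells and less RNA per goblet cell cannot be told apart. Library C also had the most total counts but the fewest genes with at least 10 counts, 11986 against 12549 in A and 12964 in B. Over all genes tested, the log2 fold change had a Spearman correlation of -0.14 with longest transcript length and -0.13 with transcript GC content. The part of library quality in the differences of C was not tested.

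**Figure D2:**
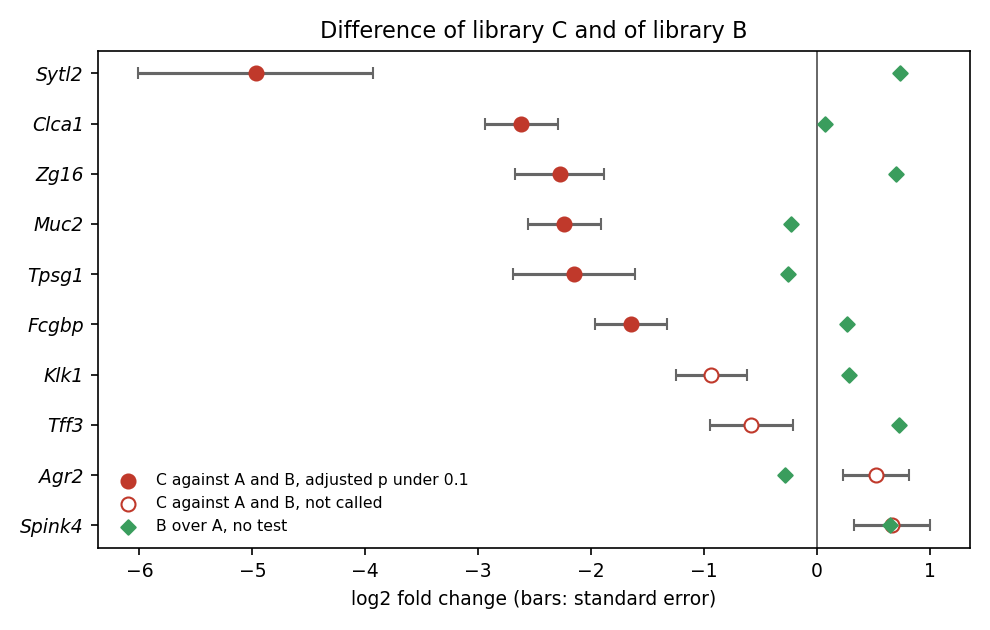
log2 fold change of each gene in C against A and B (circles, bars are 1 standard error, filled where the adjusted p was under 0.1) and log2 ratio of B over A (diamonds, no test). The 6 called genes lie between -4.97 and -1.64, while B over A lies between -0.28 and 0.74.

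Muc2 encodes the gel-forming mucin that is the scaffold of intestinal mucus (chr7:141690340-141754693, plus strand, GRCm38). Its levels in A, B and C were 256, 219 and 50.5 CPM, from 4644, 5053 and 1446 counts. A and B were close and C stood well below both. Muc2 was 4.71-fold lower in C (log2 fold change -2.23 ± 0.32 SE, edgeR adjusted p = 0.0228). By rank of CPM it was gene 633 in A, 771 in B and 3987 in C.

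Fcgbp encodes a large protein of repeated von Willebrand D domains that is bound into the Muc2 gel (chr7:28071236-28120862, plus strand). It was at 682, 822 and 241 CPM in A, B and C. It was the most abundant of the 6 called genes by CPM in every library. The fold change was smaller than for Muc2, 3.12-fold lower in C (log2 fold change -1.64 ± 0.32 SE, edgeR adjusted p = 0.0458). Fcgbp counts per Muc2 count were 2.66, 3.76 and 4.77.

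Clca1 encodes a metalloprotease that cleaves Muc2 in the secreted gel (chr3:145003817-145032776, minus strand). The 3 libraries held 131, 138 and 21.9 CPM. A and B differed by a log2 ratio of 0.07, the closest agreement among the 10 genes. In C it was 6.14-fold lower (log2 fold change -2.62 ± 0.32 SE, edgeR adjusted p = 0.0156). That was the smallest adjusted p of the 10.

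Zg16 encodes a lectin of the mucus that binds the wall of Gram-positive bacteria (chr7:127050156-127087328, minus strand). It was at 95.8, 156 and 26.0 CPM. The pair A and B was less even here, with B over A at 0.71 on the log2 scale. C still lay below both, 4.85-fold lower than the pair (log2 fold change -2.28 ± 0.40 SE, edgeR adjusted p = 0.0364).

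Agr2 encodes a protein disulfide isomerase of the endoplasmic reticulum that mucin folding needs (chr12:35992907-36004087, plus strand). Agr2 was at 445, 367 and 585 CPM, highest in C. The difference did not pass the test (log2 fold change 0.53 ± 0.29 SE, edgeR adjusted p = 0.315). Set against Muc2 within a library, the gene for the client was at 0.576 and 0.596 counts per Agr2 count in A and B. In C the ratio was 0.0863.

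Tff3 encodes the trefoil peptide that goblet cells secrete with the mucin and that takes part in epithelial repair (chr17:31125306-31129646, minus strand). Tff3 was at 676, 1124 and 602 CPM. A and C were close, and B stood above both. The difference of C did not pass the test (log2 fold change -0.58 ± 0.37 SE, edgeR adjusted p = 0.368). Against A alone it was -0.17 on the log2 scale, and against B alone -0.90. Tff3 thus had 2.64, 5.14 and 11.9 counts for each count of Muc2.

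Spink4 encodes a small Kazal-type protease inhibitor of goblet granules (chr4:40920052-40931395, plus strand). It was at 318, 499 and 649 CPM. C was the highest, but the step from A to B was about as large (0.65 on the log2 scale) as the fitted difference. Against A alone C was 1.03 higher on the log2 scale, and against B alone 0.38. It did not pass the test (log2 fold change 0.67 ± 0.34 SE, edgeR adjusted p = 0.279). Its counts per Muc2 count were 1.24, 2.28 and 12.9.

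Klk1 encodes tissue kallikrein, a serine protease that releases kinins (chr7:44225360-44229618, plus strand). Klk1 was at 66.6, 81.2 and 38.7 CPM. C was lowest, yet the call was not made (log2 fold change -0.93 ± 0.32 SE, edgeR adjusted p = 0.146). Without the filter on low counts Klk1 was called lower (edgeR adjusted p = 0.0696). Close copies exist among the mouse kallikreins, and reads shared with them could be split by the authors' quantification. The 13 Klk1b genes and 4 other kallikreins on the list gave no value past the filter. Among the Klk1b genes, Klk1b27 had 1 count in B, and the rest had 0 counts in every library.

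Tpsg1 encodes a membrane-anchored tryptase (chr17:25369273-25374442, plus strand). Tpsg1 was at 19.3, 16.1 and 3.98 CPM. C was 4.44-fold lower (log2 fold change -2.15 ± 0.54 SE, edgeR adjusted p = 0.0830). The call was lost when the trend with transcript GC content was removed (log2 fold change -1.94, edgeR adjusted p = 0.103). Tpsg1 shares exon bases with Cacna1h on the other strand, which had 0, 41 and 0 counts, fewer than the 349, 373 and 114 of Tpsg1. Tpsg1 kept nearly the same ratio to Muc2 in every library, at 0.0752, 0.0738 and 0.0788 counts per Muc2 count.

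Sytl2 encodes a synaptotagmin-like Rab27 effector that takes part in granule docking (chr7:90302252-90410719, plus strand). Sytl2 was at 5.85, 9.78 and 0.244 CPM, from 106, 226 and 7 counts. The 7 counts give an exact Poisson 95% interval of 0.0982 to 0.503 CPM, which covers counting error only. Sytl2 was lower in C (log2 fold change -4.97 ± 1.04 SE, edgeR adjusted p = 0.0551). It passed the filter through A and B, so its call rests on libraries where it was high.

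**Figure D3:**
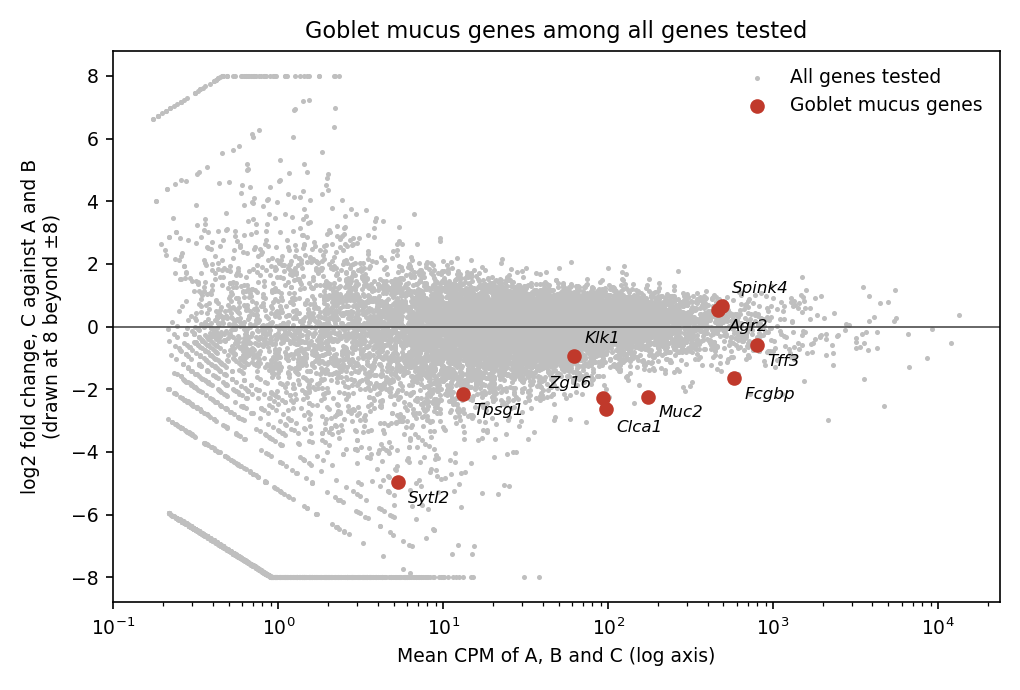
Mean CPM (log axis) against the log2 fold change of C for all 13604 genes tested (grey) and the 10 mucus genes (red). Grey bands at the edge are genes with few or 0 counts in C or in A and B, whose fitted values depend on the prior count. Clca1, Zg16 and Muc2 lie between -2.62 and -2.23.

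Between A and B alone, 7 of the 10 genes were higher in B, and Muc2, Agr2 and Tpsg1 were lower. The median log2 ratio of B over A was 0.28 for the 10 genes. It was -0.02 for the 11232 genes with at least 10 counts in every library, a filter that Sytl2 does not pass. The comparison of B with A is 1 library against 1, with no test. The 6 genes called lower summed to 1191, 1360 and 343 CPM. The other 4 summed to 1506, 2071 and 1874. The plot of ratios to Muc2 needs no scaling between libraries, since each ratio is taken within 1 library. Muc2 is itself lower in C, so genes that were not lower rise against it there by construction. Of the other genes lower in C, Fcgbp rose against Muc2 (2.66, 3.76 and 4.77), while Sytl2 was lowest in C (0.0228, 0.0447 and 0.00484).

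**Figure D4:**
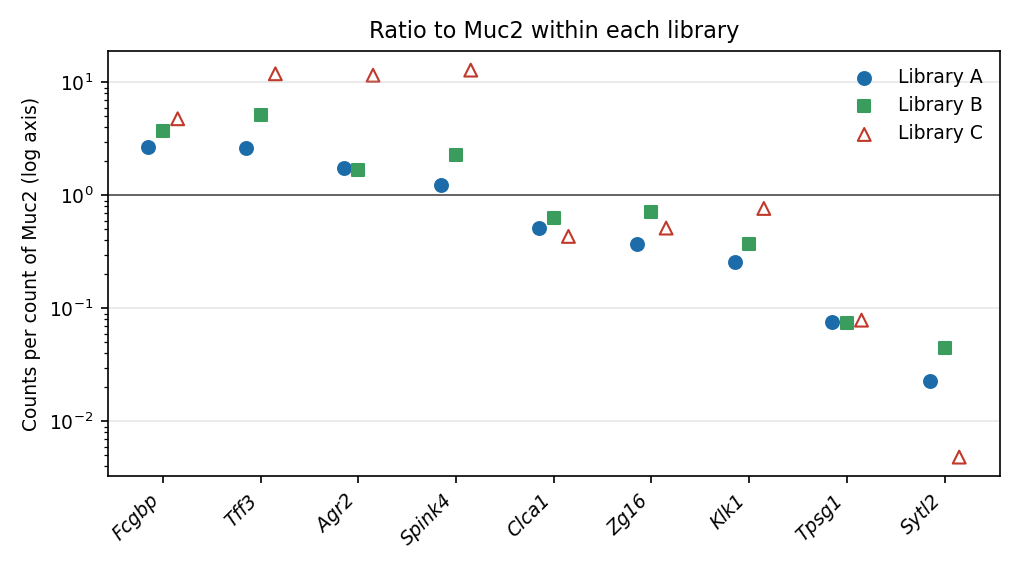
Counts of each gene per count of Muc2 (log axis) in libraries A (circles), B (squares) and C (open triangles), with a line at 1. Tff3, Agr2 and Spink4 lie between 11.6 and 12.9 in C, while Tpsg1 lies at 0.0752, 0.0738 and 0.0788 in A, B and C and Zg16 in C lies between A and B.

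Likeness of profile was described by the distance between log2(CPM + 1) values over the 3 libraries, centred on the mean. With 3 points this is a description and was given no p. Muc2 and Tpsg1 were nearest to each other (0.25), as were Tff3 and Klk1 (0.44) and Agr2 and Spink4 (0.67). Clca1 was nearest to Muc2 (0.36), Sytl2 to Clca1 (0.45), Zg16 to Sytl2 (0.49) and Fcgbp to Tpsg1 (0.42). Outside the 10 genes, among 3975 genes with a mean of at least 50 CPM, the profile of Muc2 was most closely matched by Hist1h1c, a linker histone, at 81.7, 69.2 and 15.6 CPM. Mical2, an actin-oxidising enzyme, Cog1, a Golgi tethering subunit, Tuba1c, an alpha-tubulin, and Txnip, a thioredoxin-binding protein, came next.

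The wider goblet programme was described through lists of genes by role, with counts to be read against the shares of all genes given above for each tool and threshold. Of 12 transcription factors of the goblet lineage, all 12 were tested and 0 were called by edgeR. At an unadjusted p under 0.05 edgeR gave 1 lower and 1 higher, and DESeq2 called 0. Spdef, which drives goblet maturation, was at 22.7, 27.2 and 24.6 CPM. Xbp1, a factor of the unfolded protein response, was at 490, 465 and 527 CPM, and Klf5, a crypt factor, at 403, 372 and 565 CPM. The median log2 fold change of this list was 0.14.

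Of 20 other secreted goblet products, 19 were matched, 12 were tested and 0 were called by edgeR, with a median of 0.01. At an unadjusted p under 0.05 edgeR gave 1 lower and 0 higher, and DESeq2 called 1 lower. Ang4, an antimicrobial ribonuclease, was at 528, 735 and 862 CPM. Lypd8, which binds flagellated bacteria, was at 4098, 3808 and 2739 CPM, most of the list's sum of 5639, 5526 and 4297 CPM. The list was set by name, and bulk IEC do not show which of its products goblet cells made. Clca3b, a relative of Clca1, was at 509, 544 and 283 CPM (edgeR adjusted p = 0.139). Muc5ac and Muc5b, gel-forming mucins of stomach and airway, had 0 counts in every library.

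Of 6 tested enzymes that act on secreted mucus, 2 were called lower. Pcsk5, a proprotein convertase, was at 99.0, 107 and 32.6 CPM (edgeR adjusted p = 0.0434). Tgm2, a transglutaminase that crosslinks proteins, was at 142, 159 and 68.1 CPM (edgeR adjusted p = 0.0909). Mep1b, the meprin subunit of the protease that frees Muc2 from the surface, was at 322, 196 and 166 CPM and was not called. The list median was -0.65.

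Of 24 tested genes for protein folding in the endoplasmic reticulum, 2 were called lower and 0 higher by edgeR. DESeq2 called 3 lower and 2 higher. Hyou1, a chaperone, was at 39.0, 54.7 and 7.78 CPM (edgeR adjusted p = 0.0283), and Kdelr1, a retrieval receptor, at 111, 112 and 50.5 CPM (edgeR adjusted p = 0.0888). The abundant Hspa5 was at 1163, 1250 and 1826 CPM and Pdia3 at 1106, 1158 and 1832 CPM, both not called. P4hb, another disulfide isomerase, was at 2262, 1884 and 1642 CPM. The median was 0.10.

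Of 25 tested genes for mucin O-glycosylation, 4 were called lower and 0 higher, with a median of -0.03. All of these were of low level. Gal3st2, Galnt5 and B4galnt3 passed the filter through A and B, where they were higher, while St3gal1 kept 26 counts in C. Gal3st2, a sulfotransferase, was at 10.3, 6.19 and 0 CPM, at least 78.6-fold lower in C against a floor of 3 counts (0.105 CPM in C). Galnt5, which starts O-glycans, had 33, 137 and 0 counts, at least 37.0-fold lower by the same floor. B4galnt3 had 65, 79 and 1 counts, and St3gal1 was at 5.19, 14.2 and 0.907 CPM. The sialyltransferases St3gal4 (621, 364 and 595 CPM), St3gal6 (175, 142 and 173 CPM) and St6galnac2 (93.6, 119 and 92.6 CPM) were not called. They led the list by level per kilobase of the median transcript.

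Of 19 tested genes for granule transport and exocytosis, 1 was called lower, Sytl4, a relative of Sytl2, with 63, 58 and 0 counts (at least 28.6-fold lower by that floor). It too passed the filter through A and B. Rab3d, a granule GTPase, was at 109, 133 and 109 CPM. Stx3 was at 91.2, 90.2 and 139 CPM and Stxbp2 at 165, 159 and 197 CPM, a syntaxin and its partner. The list median was -0.15, and DESeq2 called 3 lower and 1 higher.

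**Figure D5:**
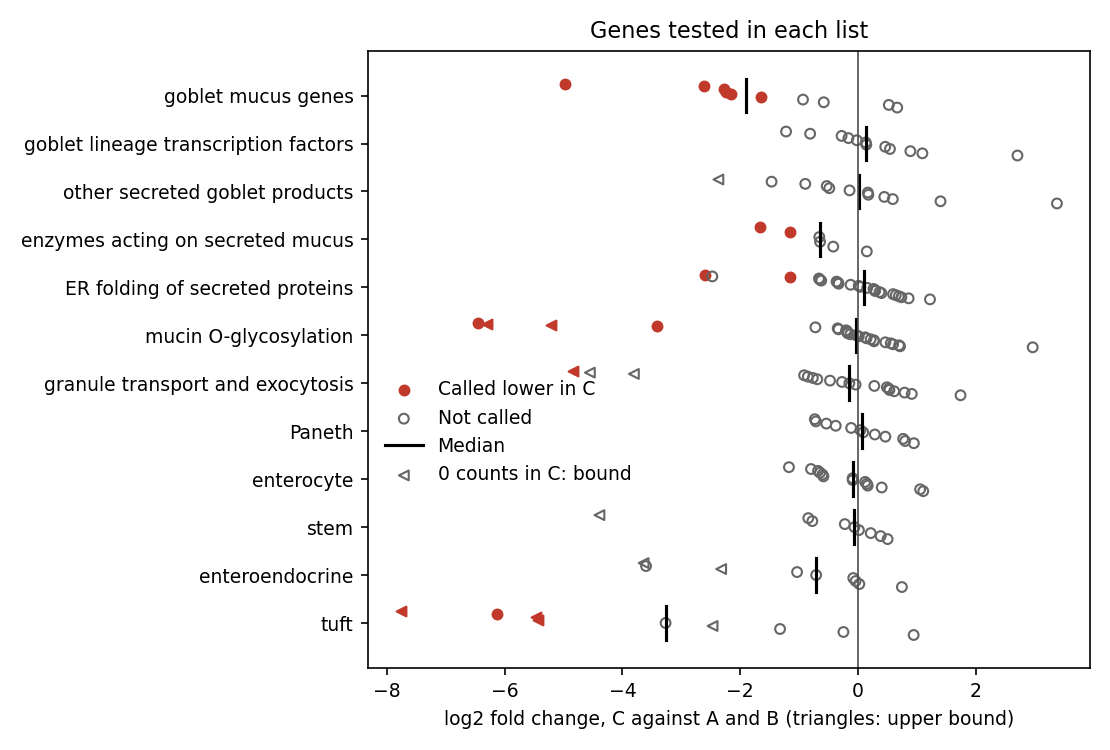
log2 fold change of C against A and B for each gene tested in 12 lists, red where called lower, with the list median as a bar. Triangles are genes with 0 counts in C, drawn at the bound set by 3 counts. The mucus genes have a median of -1.90, against 0.14 for the lineage factors and 0.07 for Paneth markers, and the tuft list lies lowest at -3.27.

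Of 23 other kallikreins and serine protease inhibitors listed, 17 had 0 counts in every library. Spint1 was at 426, 337 and 240 CPM and Spint2 at 1008, 1203 and 648 CPM, both membrane inhibitors of serine proteases. Spink1 was at 12.6, 13.3 and 11.7 CPM. None of the 3 tested was called by edgeR, 1 was lower at an unadjusted p under 0.05, and DESeq2 called 1 lower.

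Tryptases are also known from mast cells. Of 12 mast cell markers, 9 had 0 counts in every library, Cpa3 and Mcpt1 among them, and their sum was 12.9, 31.7 and 7.85 CPM. Nearly all of that was Kit, at 12.4, 30.1 and 7.85 CPM, which secretory epithelial cells also express.

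Other cell types were set beside the mucus genes because libraries can differ in their mix of cells. Counts among their markers are likewise to be read against the shares of all genes given above for each tool and threshold. Of 9 tested tuft cell markers, 4 were called lower in C, and the 11 listed summed to 66.2, 83.4 and 26.7 CPM. Trpm5, Pou2f3 and Dclk1, which define tuft cells, had 0 counts in C, and Sh2d6, the other called marker, had 91, 354 and 4. These 4 passed the filter through A and B, so a lower call was the only one open to them. The 3 tuft markers highest per kilobase of the median transcript were not called. Ptgs1 was at 7.62, 6.10 and 13.2 CPM, Rgs13 at 10.5, 7.92 and 7.78 CPM and Avil at 15.3, 11.0 and 5.27 CPM. With the longest transcript, the highest means were Rgs13 at 5.66, Sh2d6 at 4.94 and Trpm5 at 3.67 CPM per kilobase. Sh2d6 and Trpm5 are among the called markers, so this order depends on the gene model used. The edgeR test called none of the 12 Paneth, 14 enterocyte, 9 stem and 9 enteroendocrine markers tested. DESeq2 called 2 Paneth markers higher, 1 enterocyte marker lower and 1 higher, and 1 stem marker lower. At an unadjusted p under 0.05 edgeR gave 2 Paneth markers higher, 2 enterocyte markers lower and 1 higher, 2 stem markers lower, and 2 enteroendocrine markers lower and 1 higher. Of 3 tested stromal markers 1 was called lower, Vim, with 46, 135 and 0 counts, which also passed the filter through A and B. The part of cell mix in the differences of the mucus genes was not tested.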

How the data were processed

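RNA-seq of SMART-Seq2 libraries gave 3 samples of 1 group, taken from the labels. Trimmomatic 0.39 and Salmon 0.14.1, named in the submitters' processing notes, were used by the authors for trimming and transcript quantification, with sums per gene. Their table of estimated counts was used as deposited, since all its values are whole. Of 35824 genes, 35436 received a symbol from GENCODE M21 (GRCm38), which also gave coordinates and lengths. CPM used TMM factors. C was tested against A and B with edgeR 4.0.16 (filterByExpr, glmQLFit, Benjamini-Hochberg at 0.1) in R 4.3.3, and DESeq2 1.42.0 was an alternative. Standard errors were taken as the absolute log2 fold change over the square root of F. All 10 genes were named. Of each other list, the 3 highest per kilobase of the median transcript and those called were named. Most markers of other cell types, however, are given by list counts only. The members and lists were chosen with earlier results of these data known. Depth was 17946361 to 28913885 counts, and intervals and the floor of 3 counts cover counting error only. Promoters are from RefSeq (GRCm38.p6), found for 5 of 10 genes. The fitting script was tested on simulated data. Alternatives were other scalings, filters, tests, thresholds, length or GC trend removal and leaving out a library. IEC ONLY libraries were not analysed here.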

Additional observations from a re-analysis of the deposited data

How the results depend on the processing

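Of 89 tested values of single mucus genes under the alternatives, 85 kept their direction and side of the threshold, 3 lost their call (Sytl2 and Tpsg1 at an adjusted p of 0.05, and Tpsg1 with the GC trend removed) and 1, Klk1 with no filter on low counts, gained it. The number of the 10 genes called lower was between 4 (threshold of 0.05) and 7 (no filter), and 0 were called higher under every alternative run. Sytl2 has no value under the filter of at least 10 counts in every library, and the median log2 fold change of the 9 others was then -1.66. Leaving out A or B in turn gave medians from -1.90 to -1.69, and all 20 values of single genes kept their sign, with no test. Over all genes, 1577 were lower and 825 higher with no filter, 1223 and 395 by DESeq2's Wald test, 261 and 15 at 0.05, and 344 were higher with at least 10 counts in every library. With plain library totals 936 were lower and 295 higher. With the longest transcript, and with no length correction, 5 of 10 places in the order of levels were kept. With a minimum mean of 10 CPM in place of 50, 1 of the 5 genes nearest to Muc2 was the same. The cause of these shifts was not tested. Depth limits Sytl2 most, at 7 counts in C, and 3 libraries with 1 residual degree of freedom limit the others. No paired analysis was possible because all 3 libraries belong to 1 group.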

Other observations

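Spink4 and Tff3 are both small granule products, and their ratio within a library differed between libraries. Spink4 had 0.470 counts per Tff3 count in A and 0.444 in B, close to each other. In C it had 1.08 counts per Tff3 count. Agr2 had 0.658, 0.327 and 0.971 counts per Tff3 count, so that ratio differed more between A and B. These are single values per library, with no test.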
